A study of Mus musculus with 6 samples.

Results

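The genes of MHC class I antigen presentation and the gene for the checkpoint ligand PD-L1 were examined in MC38, a mouse colorectal cancer cell line, with and without EPA (eicosapentaenoic acid, an omega-3 fatty acid of fish oil). The 10 genes are the class I heavy chains H2-D1 and H2-K1, their light chain B2m, the peptide transporter genes Tap1 and Tap2, the loading factor Tapbp, the immunoproteasome subunits Psmb8 and Psmb9, the transcriptional activator Nlrc5, and Cd274, which encodes PD-L1. These 10 genes were chosen with earlier results of these data known. They were read by name, as rows of the deposited table whose target ID equals the gene name. That way 9 of the 10 (H2-D1, H2-K1, B2M, TAP1, TAP2, TAPBP, PSMB8, PSMB9 and CD274 in the capitals of the table) were found among 30828 target IDs. Nlrc5 has no row under its own name, and it was read from the target AI451557, which the RefSeq gene table lists as a synonym of Nlrc5 and of no other gene. All 10 genes lay above the background limit on all 6 arrays. Nlrc5, Cd274, Tap1, Tap2 and Psmb9 were each read by 1 probe, and the other genes by 2 or 3.

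The EPA group had 3 samples grown for 24 h with 50 µM EPA as the free fatty acid, and the control group had 3 samples, with neither vehicle nor time given in the sample annotation, so a difference in these cannot be told apart from EPA. Both groups were grown in RPMI medium with foetal calf serum. Each sample was total RNA read on 1 Illumina mouse bead array, and values are quantile-normalised intensities on a linear scale. Whether the 3 samples of a group are separate cultures is not annotated, and p-values here therefore weigh only sample-to-sample spread, possibly technical. The number of arrays limits the precision.

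Class I molecules display peptides from inside the cell to CD8 T cells. The proteasome, in immune-stimulated cells carrying the Psmb8 and Psmb9 subunits, cuts proteins into peptides, the Tap1-Tap2 transporter pumps them into the endoplasmic reticulum, and tapasin (Tapbp) with calreticulin and Pdia3 helps to load them onto the heavy chain bound to B2m. Interferon gamma raises most of these genes. Nlrc5 activates the promoters of a part of them, the heavy chain genes and B2m included, through the S, X1, X2 and Y boxes. PD-L1 is also raised by interferon gamma and restrains T cells that carry its receptor PD-1.

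Promoter sequences were available for 8 of the 10 genes in the RefSeq promoter table of build GRCm38.p6, and none was used for Tap2 or Nlrc5. The 4 stretches below are shown because they carry the boxes on which Nlrc5 is known to act, or because 2 of the genes share them. Capitals mark matches, on either strand, to TGACG (a core of the CRE-like X2 box), CCAAT (the Y box core, ATTGG on the other strand), GAAA, any 2 bases and GAAA (the core of the interferon-stimulated response element, ISRE), and GGGA, any 2 bases and TTCC (a kB site). Each runs 5′ to 3′ on the strand given and ends at the base before the annotated transcription start.
H2-D1 (chr17:35262964-35263093, plus strand): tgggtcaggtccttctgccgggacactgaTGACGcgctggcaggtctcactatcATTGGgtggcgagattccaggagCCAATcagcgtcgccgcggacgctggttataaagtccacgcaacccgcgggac
H2-K1 (chr17:34000348-34000477, minus strand): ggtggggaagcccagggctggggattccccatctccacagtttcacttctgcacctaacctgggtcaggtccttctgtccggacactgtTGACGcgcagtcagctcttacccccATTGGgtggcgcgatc
B2m (chr2:122147537-122147686, plus strand): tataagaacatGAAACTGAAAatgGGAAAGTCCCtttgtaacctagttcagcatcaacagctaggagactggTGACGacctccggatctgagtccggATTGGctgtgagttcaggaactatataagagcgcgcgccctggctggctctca
Tap1 and Psmb9 (chr17:34187331-34187555, plus strand, from the base before the Psmb9 start to the base before the Tap1 start): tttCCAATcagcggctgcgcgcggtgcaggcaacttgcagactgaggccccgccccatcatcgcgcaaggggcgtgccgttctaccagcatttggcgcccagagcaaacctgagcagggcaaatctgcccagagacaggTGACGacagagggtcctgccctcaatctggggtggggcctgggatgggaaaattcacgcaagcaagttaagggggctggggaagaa

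In H2-D1, H2-K1 and B2m the first base of TGACG lay 25 bases before the first base of ATTGG. The TGACG began at position -101 from the start in H2-D1, at -41 in H2-K1 (at -55 from its second annotated start) and at -78 in B2m. This pair at this spacing, a pattern chosen after the sequences were seen, occurred in 31 of 32851 promoter windows of 250 bases before to 50 after a start (0.0944%). TGACG alone was in 20.8% of windows and CCAAT in 37.4%. B2m also matched the ISRE pattern given above, found in 3.44% of windows, and the kB pattern, found in 1.47%. Only these exact letters were searched, so an unmarked stretch, as in H2-K1, may hold another form of these motifs. Tap1 and Psmb9 are transcribed away from each other, and 225 bases separate their starts. That shared stretch held 1 TGACG and 1 CCAAT, far apart. The window of Psmb8 held TTCNNNGAA (the GAS motif, which reads the same on both strands, in 8.30% of windows), that of Tapbp held 2 inverted CCAAT cores, and that of Cd274 held none of the 5 motifs searched. A match is a description of the letters and not a measured binding site.

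The classical and loading genes of the pathway were higher with EPA, whereas Nlrc5 and Cd274 were lower. Of the 8 structural genes, 6 rose, 0 fell and 2 did not pass an adjusted p of 0.05 in limma, beside 18.5% of all 9258 genes tested that rose. Their median log2 fold change was 0.55, beside 0.01 over all genes tested. Both Nlrc5 and Cd274 fell, beside 15.6% of all genes tested that fell. The groups did not overlap for 8 of the 10 genes, beside 47.6% of all genes tested. With 34.1% of all genes past the threshold, a call in this comparison is common. The 10 genes were chosen with earlier results of these data known, so these counts describe them and are no test of the set.

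**Figure D1:**
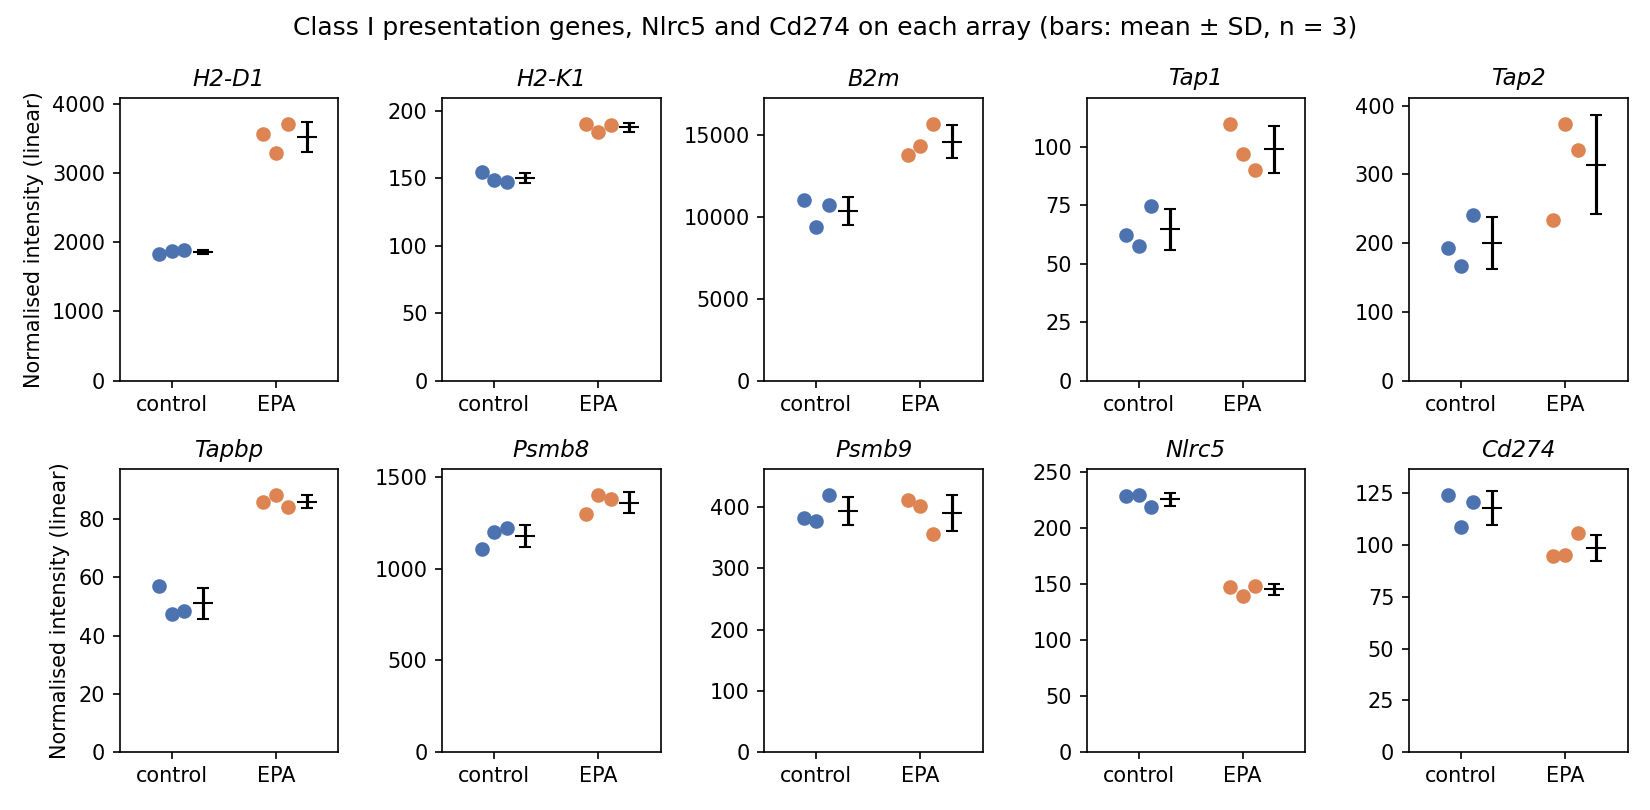
Normalised intensity (linear scale from 0) of each of the 10 genes on the 3 control arrays (blue) and the 3 EPA arrays (orange), with the mean and SD of each group in black. The EPA points lie above the control points for H2-D1, H2-K1, B2m, Tap1, Tapbp and Psmb8, below them for Nlrc5 and Cd274, and among them for Tap2 and Psmb9.

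The heavy chain gene H2-D1 changed most. Its intensity was 1825, 1866 and 1879 on control arrays 1 to 3 and 3557, 3281 and 3709 on EPA arrays 1 to 3. Every EPA array was far above every control array, and the control arrays were nearly alike. The rise was 1.89-fold (log2 0.92, SE 0.0741, limma adjusted p = 4.27e-05), which ranked 66 by signed change among the 9258 genes.

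H2-K1, the other classical heavy chain measured, read 154, 149 and 147 in control cells and 190, 184 and 189 with EPA. The groups did not overlap and the arrays within each were close together. It rose 1.25-fold (log2 0.32, SE 0.0678, limma adjusted p = 0.00532). Keeping all dim targets cost it the call (adjusted p = 0.0590, range 0.00306 to 0.0590 over all alternatives). The rise of H2-D1 exceeded that of H2-K1 by 0.59 on the log2 scale (SE 0.0523), a pair singled out after the values were seen and given only as a description. These heavy chain genes are related in sequence to one another and to the Q and T region genes, so their probes may share signal, which was not tested. H2-K1 is also listed as an older name of H2-K2, a transcribed pseudogene, whose target EG630499 rose 1.57-fold, from 1743 ± 45.6 (SD, n = 3) to 2730 ± 23.6 (limma adjusted p = 0.000122).

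B2m, the light chain common to all class I molecules, is among the brightest genes of the array. It read 11034, 9378 and 10703 in control cells and 13781, 14343 and 15697 with EPA. All 3 EPA arrays were above all 3 control arrays. The rise was 1.41-fold (log2 0.50, SE 0.0878, limma adjusted p = 0.00221).

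Both transporter genes were higher with EPA, with larger standard errors than the other 8 genes. Tap1 read 62.2, 57.6 and 74.5 in control cells and 110, 96.8 and 89.8 with EPA. The groups were apart. It rose 1.53-fold (log2 0.61, SE 0.111, limma adjusted p = 0.00244), or by log2 0.96 with the background level subtracted.

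Tap2, the partner of Tap1, read 193, 166 and 241 in control cells and 233, 374 and 336 with EPA. Here the groups overlapped, because EPA replicate 1 lay below control replicate 3. Its log2 fold change of 0.64 (SE 0.177, limma adjusted p = 0.0201) passed the threshold but had the widest error of the 10 genes. The call was lost without control replicate 1 (log2 0.62, adjusted p = 0.0541), control replicate 2 (0.52, adjusted p = 0.0715), EPA replicate 2 (0.50, adjusted p = 0.0680) or EPA replicate 3 (0.58, adjusted p = 0.0677). Over all alternatives its adjusted p ran from 0.00308 to 0.135. Tap1 and Tap2 thus had similar estimates, and their difference was -0.03 on the log2 scale with an SE of 0.284.

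Tapbp, which bridges the transporter and the empty class I molecule, read 57.1, 47.5 and 48.4 in control cells and 85.8, 88.3 and 84.0 with EPA. All EPA arrays were above all control arrays, and the control arrays stood only just above the background limit of 39.5. It rose 1.69-fold (log2 0.76, SE 0.0861, limma adjusted p = 0.000193), or by log2 1.36 with the background level subtracted.

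The immunoproteasome genes had the smallest log2 fold changes of the 10 in size. Psmb8 read 1109, 1199 and 1224 in control cells and 1297, 1402 and 1382 with EPA. The groups did not overlap, but the log2 fold change of 0.21 (SE 0.0746, limma adjusted p = 0.0547) did not pass. It passed in 7 of 17 alternative fits, among them the fit without EPA replicate 1 (log2 0.24, adjusted p = 0.0438), and its adjusted p ran from 0.0261 to 0.230.

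Psmb9 read 382, 378 and 420 in control cells and 413, 402 and 357 with EPA. The groups were intermingled, and EPA replicate 3 was the lowest of all 6 arrays. Its log2 fold change was -0.01 with a 95% interval of -0.20 to 0.17 (limma adjusted p = 0.925), so a rise as large as that of Tap1 lay outside the interval. Tap1 and Psmb9 flank the shared stretch printed above, and their log2 fold changes differed by 0.63 (SE 0.0759), with no overlap between the groups. That pair was singled out after the values were seen and is given only as a description.

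Nlrc5, the activator, with 1 probe, read 228, 229 and 219 in control cells and 147, 139 and 148 with EPA. The 2 groups were far apart relative to their spread. It was 1.56-fold lower with EPA (log2 -0.64, SE 0.0693, limma adjusted p = 0.000155), and the fall held under all alternatives, from -0.76 to -0.59.

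Cd274, also with 1 probe, read 124, 109 and 121 in control cells and 94.9, 95.4 and 106 with EPA. The groups did not overlap, but control replicate 2 and EPA replicate 3 nearly met. It was 1.19-fold lower (log2 -0.25, SE 0.0829, limma adjusted p = 0.0391). The call was lost without control replicate 1 (log2 -0.21, adjusted p = 0.131), control replicate 3 (-0.24, adjusted p = 0.105), EPA replicate 1 (-0.23, adjusted p = 0.0889) or EPA replicate 2 (-0.23, adjusted p = 0.110). Its adjusted p ran from 0.0279 to 0.192 over all alternatives, and its direction was the same in each.

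**Figure D2:**
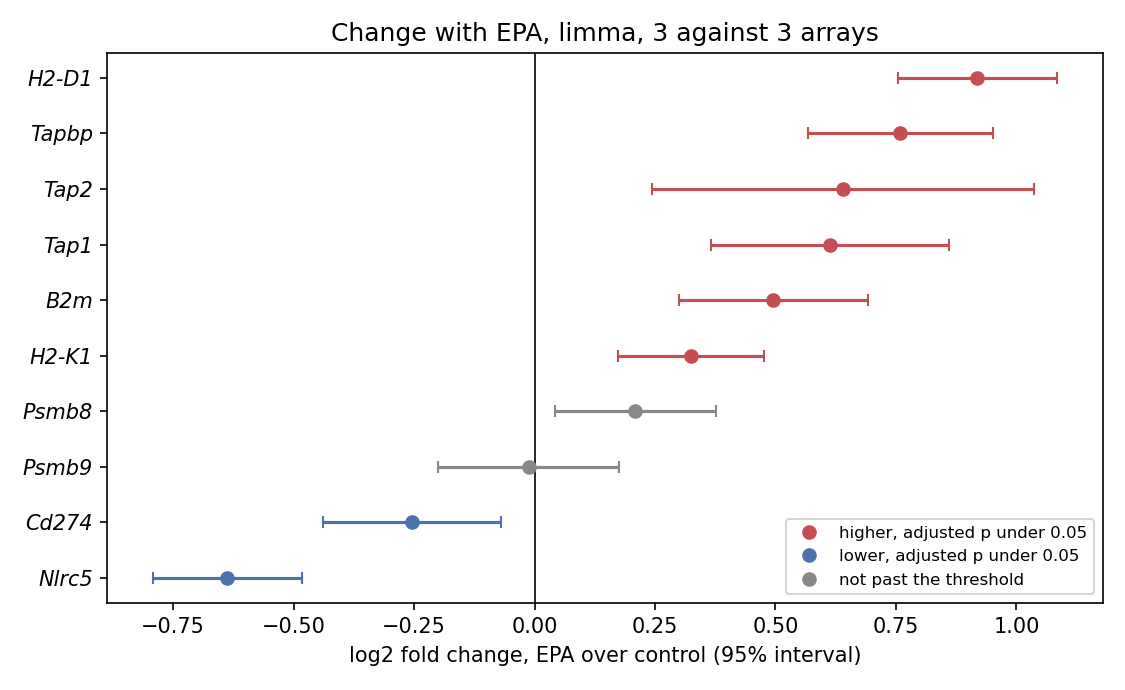
Log2 fold change of EPA over control (x axis) for each of the 10 genes, with its 95% interval from limma, coloured by call at an adjusted p of 0.05. H2-D1 is highest at 0.92 and Nlrc5 lowest at -0.64, and the intervals of neighbouring genes from H2-D1 down to Psmb9 overlap.

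Ordered by log2 fold change, the genes ran H2-D1, Tapbp, Tap2, Tap1, B2m, H2-K1, Psmb8, Psmb9, Cd274 and Nlrc5. The 95% intervals of neighbours overlapped throughout except between Cd274 (-0.44 to -0.07) and Nlrc5 (-0.79 to -0.48). That of H2-D1 (0.75 to 1.08) did not meet that of B2m (0.30 to 0.69) or of any gene below it. The results table deposited by the authors (the authors' deposited table) lists 8 of the 10 genes, all in the same direction as here, with a ratio of 1.89 for H2-D1, 0.64 for Nlrc5 and 0.84 for Cd274. These values describe the same comparison, so the shared direction is not independent evidence. Tap2 and Psmb9 are not among the 4423 targets of the authors' deposited table.

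Each structural gene was then set against Nlrc5 and against Cd274 within the same arrays, as a difference of log2 fold changes. The SE of a difference comes from the spread of 3 against 3 arrays alone, without limma, and can be small by accident. It is therefore not comparable with the limma SE of a single gene. The genes were chosen with earlier results of these data known. The differences therefore restate the member changes above and are not independent evidence. Against Nlrc5 the differences ran from 0.63 (Psmb9, SE 0.105) to 1.56 (H2-D1, SE 0.0405), and all 8 were positive with no overlap between the groups. Against Cd274 they ran from 0.24 (Psmb9, SE 0.131) to 1.17 (H2-D1, SE 0.0762), and 7 of 8 had no overlap. The exception was Psmb9 against Cd274, whose groups overlapped (exact permutation p = 0.30, two-sided). The other 15 of the 16 pairs each gave an exact two-sided permutation p of 0.10, the smallest that 3 against 3 arrays allow (0.107 after Benjamini-Hochberg adjustment over the 16 pairs), so none could pass 0.05. B2m differed from Cd274 by 0.75 with an SE of 0.0197, the smallest of the 16 pairs, and is mentioned for that reason after the values were seen. Within each group both were lowest and highest on the same arrays, but 3 arrays are too few to show that they vary together. Cd274 fell less than Nlrc5 by 0.38 (SE 0.0838), a further pair that was looked at after the values were seen.

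**Figure D3:**
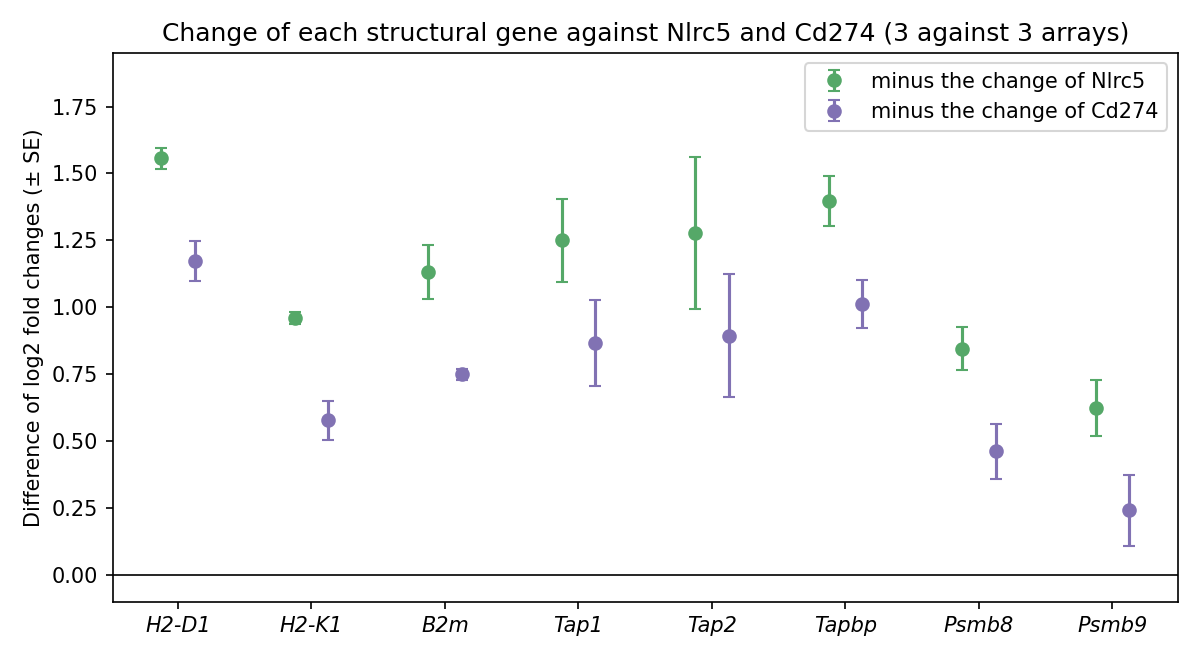
Difference between the log2 fold change of each of the 8 structural genes (x axis) and that of Nlrc5 (green) or Cd274 (purple), with the SE over 3 against 3 arrays. All 16 differences are above 0, from 0.24 for Psmb9 against Cd274 to 1.56 for H2-D1 against Nlrc5.

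Beyond the 10 genes, class I presentation was followed through a list of 33 further genes, of which 31 had a target and 20 passed the background filter. This list and those below were also chosen with earlier results of these data known. Of these 20, 8 rose, 1 fell and 11 did not pass, with a median log2 fold change of 0.11, beside 18.5% higher, 15.6% lower and a median of 0.01 over all genes tested. Of the 20, 18 were above the limit on all 6 arrays, with 7 higher and 1 lower. Fcgrt, the heavy chain of the neonatal Fc receptor, which also pairs with B2m, rose 2.04-fold from 125 ± 8.04 to 254 ± 15.7 (limma adjusted p = 3.93e-05). H2-T23, which encodes the heavy chain of Qa-1, a ligand of the inhibitory NK cell receptor NKG2A, rose 1.64-fold from 369 ± 27.5 to 603 ± 9.20 (limma adjusted p = 0.000155). The loading chaperones calreticulin (Calr) and Pdia3 rose 2.29-fold and 1.79-fold. Among non-classical genes H2-Q6 and H2-Q7 also rose (log2 0.31 and 0.25), while H2-Q8, H2-M3 and H2-T10 were not past the threshold at log2 0.18, -0.08 and -0.05.

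On the proteasome side, the gene that fell was Psme2, a subunit of the PA28 activator that interferon gamma raises, from 1251 ± 119 to 956 ± 22.5 (log2 -0.38, limma adjusted p = 0.00714). Its partner Psme1 and the remaining immunoproteasome subunit Psmb10 stood at log2 -0.00 and 0.04, neither past the threshold. The constitutive subunits that the immunoproteasome subunits replace, Psmb5, Psmb6 and Psmb7, had log2 fold changes of -0.12, -0.23 and 0.12, and 0 of the 3 passed in limma (unadjusted p of 0.258, 0.0198 and 0.116). The peptide-trimming gene Erap1 was below the background limit in both groups.

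Of 30 regulators of class I genes and Cd274, 22 were measured, and 5 rose, 2 fell and 15 did not pass, with a median log2 fold change of 0.04. These shares, 22.7% higher and 9.09% lower, are near or below the 18.5% and 15.6% of all genes tested. The genes that fell were Irf9 and Stat2, which are known to act together downstream of type I interferon. Irf9 went from 221 to 148 (log2 -0.58, limma adjusted p = 0.000353), and Stat2 from 84.5 to 59.3 (log2 -0.51, limma adjusted p = 0.00130). The interferon gamma receptor chain Ifngr1 and the signalling inhibitor Socs3 each rose 1.51-fold, and the class I activator Irf1 rose 1.20-fold. Among the proteins that bind the X and Y boxes, Rfxap, Nfya, Nfyb and Nfyc did not pass (log2 0.13, 0.05, -0.11 and 0.03), and Rfx5 was above the limit on only 1 array.

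Interferon targets moved in both directions. Of 9 measured genes on the interferon gamma list, 5 rose and 2 fell, with a median log2 fold change of 0.27, beside 18.5% higher and 15.6% lower of all genes tested. Ifi30, a lysosomal thiol reductase of class II presentation, rose 1.59-fold, the GTPase genes Gbp2 and Igtp rose 1.66-fold and 1.43-fold, and Wars fell (log2 -0.41). Of 18 measured type I interferon targets, 1 rose (5.56%) and 5 fell (27.8%), with a median of -0.12, beside the same shares of all genes. Of the 18, 15 were above the limit on all 6 arrays, with 1 higher and 4 lower. Oasl1, Rsad2 and Usp18 fell (log2 -0.53, -0.38 and -0.35), and Mx2 was at least 1.46-fold lower, its EPA arrays all being below background. The difference between these lists was not tested.

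Most measured genes of a mixed list of checkpoint ligands, an ectoenzyme and PD-L1 handling genes were higher with EPA, where Cd274 was lower. Of 20 further checkpoint ligands and PD-L1 handling genes, 11 were measured, all above the limit on all 6 arrays, and 9 rose, 0 fell and 2 did not pass, with a median log2 fold change of 0.42, beside 18.5% higher, 15.6% lower and a median of 0.01 over all genes tested. Nt5e, the adenosine-producing ectoenzyme CD73, rose 1.69-fold from 140 ± 15.8 to 236 ± 6.82 (limma adjusted p = 0.000270). Pvr and Nectin2, ligands of the T and NK cell receptor TIGIT, rose by log2 0.58 and 0.42, and Cd276, which encodes B7-H3, rose by log2 0.76 from near background. Cmtm6, which keeps PD-L1 protein at the cell surface, rose 1.46-fold, and Cd47, the signal against phagocytosis, rose 1.41-fold. The remaining genes of the list that rose were Lgals3, Lgals9 and Tnfsf9 (log2 0.24, 0.24 and 0.41). Cmtm4 and Stub1 did not pass (log2 -0.07 and -0.02). Pdcd1lg2 (PD-L2), Cd80 and Cd86 were below the background limit.

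**Figure D4:**
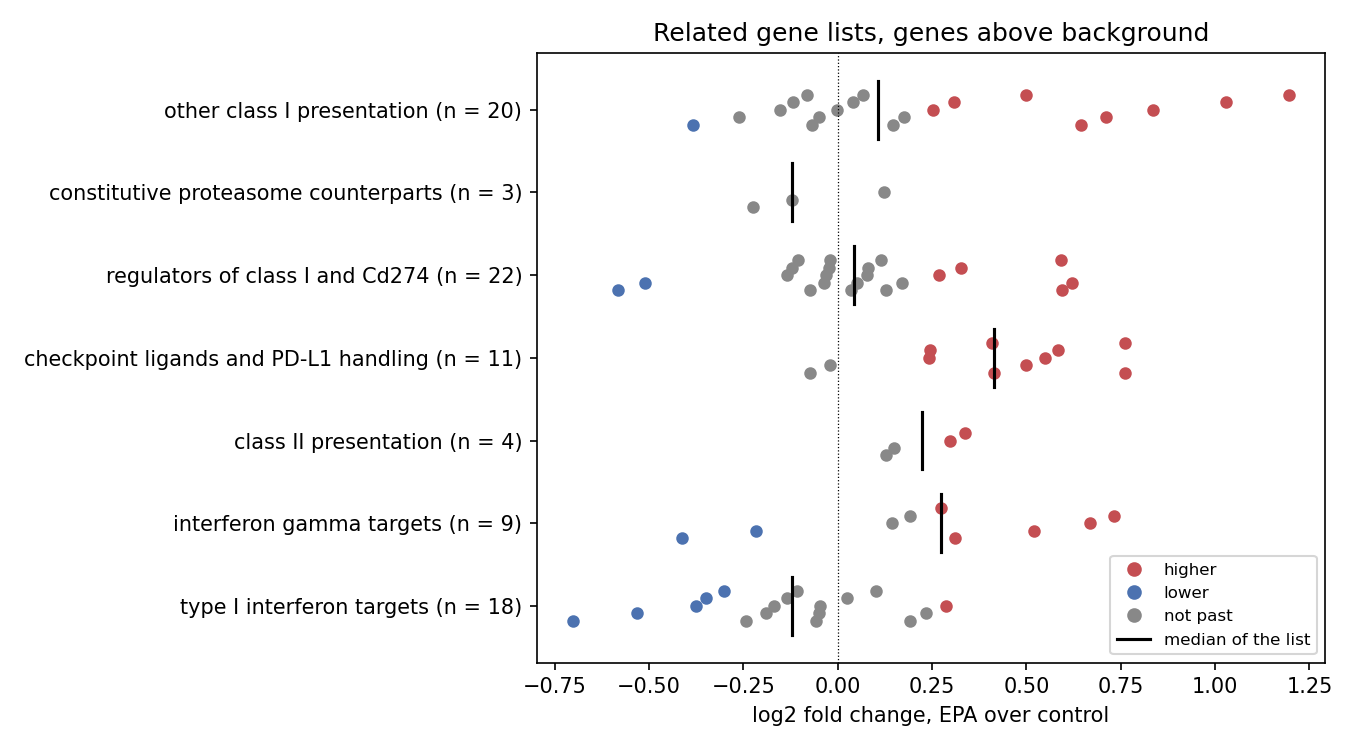
Log2 fold change of EPA over control (x axis) for the genes above background of 7 related lists, 1 point a gene, coloured by call at an adjusted p of 0.05, with a black bar at each list's median. The checkpoint list sits to the right, with 9 of 11 genes higher, and the type I interferon list to the left, with a median of -0.12.

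Class II genes were mostly at or near background. Of 10 genes 4 were measured and 2 rose, beside 18.5% of all genes tested. The peptide exchange genes H2-DMa and H2-DMb1 rose (log2 0.34 and 0.30), whereas the class II activator Ciita and the invariant chain Cd74 were below the limit. The 3 NKG2D ligand genes with a target were not above the limit on all arrays of either group.

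Markers of other cell types were also read, since in bulk RNA fewer cells of a type and less RNA per cell cannot be told apart. Of 21 immune cell markers with a target, 5 were measured, and Ptprc, Cd3e, Itgam and Adgre1 were below the limit. S100a8 fell (log2 -0.64) and Ms4a1 was at least 1.35-fold higher, its control arrays all being below background. Of the 5, 3 were above the limit on all 6 arrays, with 0 higher and 1 lower. The summed intensity of all immune markers was 887 to 949 in control cells and 864 to 896 with EPA. Of 15 fibroblast and endothelial markers 6 were measured and 5 rose, beside 18.5% of all genes tested, Dcn by 2.10-fold, Col3a1 by 2.20-fold, and Pdgfra and Col1a2 by log2 0.83 and 0.87 among them, with a summed intensity of 883 to 913 in control cells and 1414 to 1505 with EPA. The endothelial markers Pecam1 and Cdh5 and the fibroblast markers Thy1 and Fap were below the limit. All samples are of the MC38 line, and whether MC38 cells themselves carried these transcripts was not tested. Nor was any part of other cells in the class I changes. Of 14 intestinal epithelial markers only Krt8 and Cldn7 were measured, and Epcam, Cdh1, Vil1 and Cdx2, which define that lineage, were not above the limit on all arrays of either group.

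The genes whose gene-centred log2 intensities over the 6 arrays lay nearest, by Euclidean distance, to those of H2-D1 were Plxdc1 (distance 0.0334, log2 fold change 0.91), Pcolce (0.0988, 0.98) and Sparc (0.123, 0.90). For Nlrc5 they were Plk2 (0.0827, -0.63), Pisd-ps3 (0.0884, -0.63) and Tmem256 (0.0902, -0.68). For Cd274 they were Paqr3 (0.0823, -0.29), Hilpda (0.0848, -0.29) and Nme2 (0.0897, -0.24). These distances rest on 6 arrays in 2 groups, and the difference between the groups is part of each.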

How the data were processed

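Total RNA of 6 MC38 samples was read on Illumina MouseWG-6 v2 arrays, per the file headers, which also name GenomeStudio 1.7.0 and quantile normalisation. The deposited series table holds 1 linear intensity per target ID, and the rule that joined several probes of a target is unstated. The sorted values of any 2 arrays are within 0.465% of each other, which hides any shift common to a whole array. A deposited results table by the authors holds a ratio, its log2 value and p-values with the test not stated. Its raw and adjusted p-values were not used. Another 102 columns are headed by array numbers found in no sample label and were left out.

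Target IDs were matched to RefSeq genes (GRCm38.p6), by current symbol (16218) or a single synonym (5703). Targets had to exceed 39.5, the mode of the intensities (28.1) plus the one-sided 0.05 level of the spread below it (SD 6.95), on all 3 arrays of at least 1 group. The brightest target stood for each gene, giving 9258 genes. Log2 intensities were fitted with limma 3.58.1 in R 4.3.3 (lmFit, eBayes, two-sided, Benjamini-Hochberg adjustment over the 9258 genes). Folds are ratios of geometric means. Where all arrays of 1 group were below background, that group was set to the limit and the fold written "at least". On simulated data for these 9258 genes, with 200 genes changed, the fit recovered 78% of those changed by 0.5 on the log2 scale. It recovered 14% of those changed by 0.25. Far more genes (3157) were called in the measured data, so these rates may not hold there. Arrays correlated across genes at 0.994 to 0.997 in the same group and 0.983 to 0.985 in different groups.

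The members and lists were chosen with earlier results of these data known. By rule, all 10 members were named, with up to 4 called genes of the smallest p from each list. Other list members, and H2-K2, were named after their values were seen. A gene of the regulator list is not reported here. Alternatives changed the filter, background, pseudocount, normalization, variance model, targets per gene, array weights, replicate block and left out each array in turn.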

Additional observations from a re-analysis of the deposited data

How the results depend on the processing

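Nlrc5, H2-D1, B2m, Tap1 and Tapbp kept their direction and their call in every alternative fit run, and their direction in the authors' deposited table, whose p-values were not used. The authors' deposited table describes the same comparison and is not independent evidence. Without the filter on dim targets 731 genes rose and 582 fell, against 1709 and 1448 with it, with 19964 genes tested. In that fit the calls of H2-K1 (log2 0.32), Tap2 (0.64) and Cd274 (-0.25) were lost. With the background level subtracted Tap2 (0.72, adjusted p = 0.0704) and Cd274 (-0.34, adjusted p = 0.0546) no longer passed. Psmb8 passed with targets above the limit on all 6 arrays (0.21), with log2(intensity + 16) (0.21), cyclic loess (0.22), a variance trend (0.21) and array weights (0.23), and with a mean above 2 times the background level (0.21), a filter chosen after seeing the data. The cause of these changes was not tested. Leaving out single arrays gave log2 ranges of 0.50 to 0.84 for Tap2, 0.17 to 0.24 for Psmb8, -0.31 to -0.21 for Cd274 and -0.053 to 0.051 for Psmb9, whose sign turned without control replicate 3 (0.04) or EPA replicate 3 (0.051). It gave 1303 to 1595 genes higher and 1078 to 1367 lower. The replicate numbers were checked for pairing, and deviations of same-numbered samples correlated at -0.03, -0.19 and 0.11, with 1 of 6 samples closest to its own number. These values gave no sign of pairing, but 3 arrays per group are too few to exclude it. With the replicate block 1597 genes rose and 1333 fell, and Cd274 (-0.25, adjusted p = 0.0502) was not past the threshold. The 16 differences against Nlrc5 and Cd274 stayed positive in all 10 alternatives run for each, and array weights and the replicate block were not run on them. Intensity over background limits Tapbp, Tap1 and Cd274 most.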

Other observations

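The pair of a TGACG and, 25 bases on, an ATTGG, found in the promoters of H2-D1, H2-K1 and B2m, was looked up in all RefSeq promoter windows of GRCm38.p6. It occurred in windows of 27 genes, 3 of them H2 genes, and 17 of the 27 were among the genes tested. Of these, 4 rose, 3 fell and 10 did not pass in limma, close to the 18.5% higher and 15.6% lower of all genes tested, and 3 of the 4 that rose are the genes in which the pair was first seen. The genes that rose were H2-D1, H2-K1, B2m and Calu, which encodes a calcium-binding protein of the secretory pathway (log2 0.84). Those that fell were Trim26, Znrd1as and Kcnq1ot1 (log2 -0.44, -0.31 and -0.32). H2-M3, a non-classical class I gene with the same pair, was not past the threshold at log2 -0.08. These genes were looked up after the sequences were seen, and no test was made of them as a set.

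Outside the lists, H2-Q5 rose 1.56-fold, from 156 ± 10.3 (SD, n = 3) to 244 ± 17.7 (limma adjusted p = 0.000436).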
